A study of Mus musculus with 6 samples.

Results

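The translation initiation and elongation factors examined here were the 67 genes, of 52249 in the deposited table, whose symbols begin with Eif1 to Eif6, Eef1 or Eef2. The symbol patterns matched 85 genes, from which 4 kinases of the Eif2ak group, 13 pseudogenes and the Y-linked copy Eif2s3y were left out. Their RNA was measured in organoids of mouse intestine, a culture in which crypt epithelium renews itself outside the animal, with 6 libraries in all. Both groups carried a knockout of Apc, the brake on WNT signalling that is lost in most colorectal adenomas. The 3 Apc-knockout libraries served as controls, and the 3 libraries labelled Apc-knockout IGF2BP3 OE came from organoids described as also overexpressing IGF2BP3, an RNA-binding protein of fetal tissue and tumours. The labels name no vector, clone, age, sex or passage, and do not say whether replicates came from separate animals or cultures, so p-values measure only the spread between these libraries. The comparison asked how the RNA of the general translation machinery differed with the IGF2BP3 OE label.

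Eukaryotic translation starts when eIF4E binds the cap of an mRNA, eIF4G bridges it to the small ribosomal subunit through eIF3, and the helicase eIF4A unwinds the leader. A ternary complex of eIF2, GTP and initiator tRNA is carried along during scanning, with eIF1, eIF1A and eIF5 guarding start codon choice and eIF5B joining the large subunit. During elongation eEF1A delivers aminoacyl-tRNA and eEF2 moves the ribosome by 1 codon. Many of these mRNAs belong to the growth-regulated genes of epithelial tumours, being either targets of MYC or carriers of a 5′ terminal oligopyrimidine tract that mTORC1 reads.

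Of the 67 factors, 59 had enough counts to be tested. The other 8 were Eef1a2, Eif4a3l1, Eif4a3l2, Eif4e1b and Eif2c5, with 0 counts in all 6 libraries, and Eif3j2, Eif4e3 and Eif5a2, with at most 10 counts in any library. Eif2c5 is a noncoding gene that matches the symbol pattern and is no known initiation factor. In the OE-labelled libraries 15 of them were higher and 2 were lower at an adjusted p below 0.05 (quasi-likelihood test of edgeR, adjusted over all 10687 genes tested). The share called in either direction among all genes tested was 29.2%, and 17 of the 59 factors is close to it. By direction, 25.4% of the factors were higher against 16.5% of all genes, and 3.39% were lower against 12.7% of all genes. Higher were the elongation factor genes Eef2, Eef2k, Eef1a1 and Eef1d and the eIF3 subunit genes Eif3f, Eif3l, Eif3k, Eif3g and Eif3h. Also higher were the cap-complex genes Eif4a1 and Eif4h, the repressor Eif4ebp1, and Eif6, whose product holds back subunit joining. So were the methyltransferase genes Eef1akmt1 and Eef2kmt. Lower were Eif3a and Eif2a. The changes were small: 16 of the 17 were below 2-fold, the exception being Eef2k. The median log2 fold change was 0.167 over the 59 factors and 0.041 over all genes tested, and 41 of the 59 had a positive estimate. Without OE-labelled replicate 1 the number of lower factors was 4, and without control replicate 2 or control replicate 3 it was 1. Of all genes tested, 30.7, 16.8 and 15.9% were called in either direction in these fits.

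In 24 of the 59 factors every OE-labelled library lay above every control library, against 25.3% of all genes tested, and in 5 every one lay below, against 20.4%. All 15 higher and both lower factors were among them. Together the 67 genes held 1.67, 1.68 and 1.7% of all counts in control replicates 1 to 3 and 2.12, 2.03 and 2.03% in OE-labelled replicates 1 to 3. In TMM-scaled CPM (the usual count rate, with each library total adjusted for composition), their sum was 17130 ± 94.1 in controls and 20290 ± 761 in OE-labelled libraries (SD, n = 3 each), a ratio of 1.18. The rise was uneven and lay largely in the abundant Eef2 and Eef1a1. Ratios of sums were 1.59 for eEF2, 1.31 for factor methyltransferases, 1.23 for eEF1 and 1.16 for 4E-binding repressors. They were 1.08 for eIF3 and for the eIF4 group, and 1.05 for eIF2 and tRNA delivery. For start codon selection and joining, eIF2B and eIF5A they were 0.996, 0.982 and 0.975. In bulk RNA, more cells of a type and more RNA per cell cannot be told apart.

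**Figure D1:**
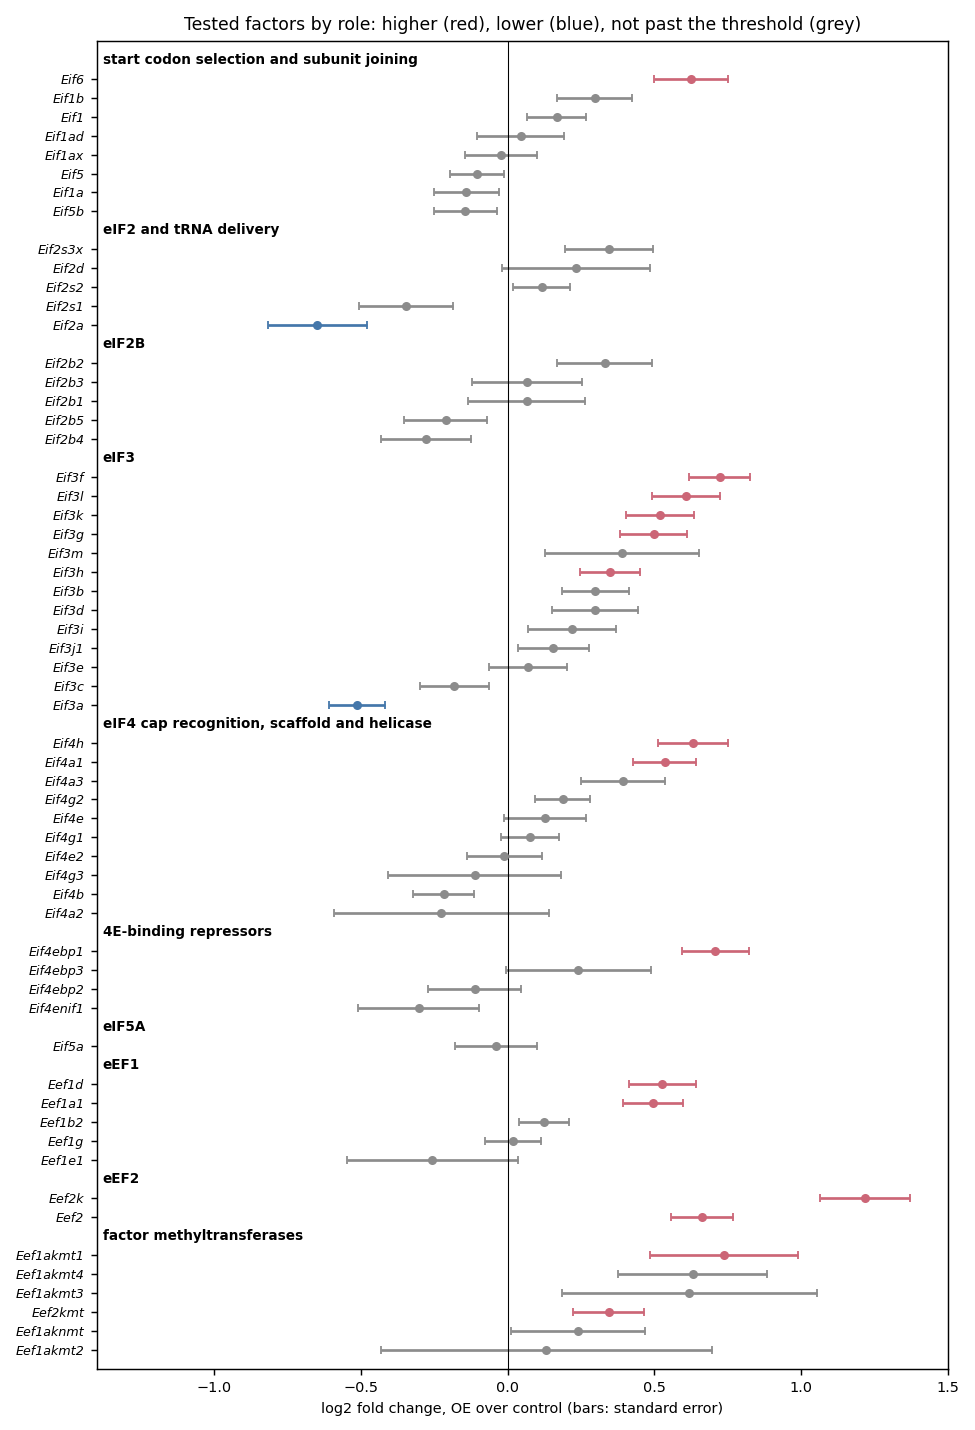
The log2 fold change of OE-labelled over control libraries is plotted on the horizontal axis for the 59 tested factors, grouped by role, with bars for the standard error. Red points are the 15 higher factors, blue points the 2 lower ones (Eif3a and Eif2a) and grey points the 42 that did not pass the threshold; Eef2k lies farthest to the right.

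The libraries held 2180087 to 2228062 counts in controls and 2310216 to 2519886 in OE-labelled libraries, so that 3 counts, the limit that a count of 0 allows, correspond to 1.17 to 1.4 CPM. Mitochondrial ribosomal RNA took 8.93 to 9.41% of control counts and 3.89 to 4.36% of OE-labelled counts. The ribosomal RNA gene CT010467.1 took 4.25 to 4.69% and 1.27 to 1.99%. Smaller shares of these leave larger shares of all counts to the other genes. Their part in the larger share of counts held by the factors was not tested. Igf2bp3 itself had 1, 0 and 0 counts in each group, so its counts gave no check of the label. The 3 controls carry 1 library series in their names and the 3 OE-labelled libraries another, so library series and group cannot be told apart. Of 12 intestinal epithelial markers, 11 were above the floor and Cdx1 was at 0, and their summed level was 4936 to 5237 CPM in controls and 6419 to 7231 CPM in OE-labelled libraries. None of 10 fibroblast and smooth muscle markers and none of 5 endothelial markers passed the floor, and all 4 globin genes were at 0. Of the 8 immune markers 4 passed it, with sums of 171 to 176.2 and 144.5 to 265.7 CPM, while Cd3e and Cd79a were at 0; of 6 neural and glial markers 2 passed it, with sums of 48.97 to 53.1 and 99.52 to 118 CPM, while Elavl4, Snap25 and Sox10 were at 0. The part of these markers in the results on translation factors was not tested.

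Promoters were looked at because several factors of different complexes were higher together and because the study concerns MYC, which binds the E-box CACGTG. That hexamer reads the same on both strands and was searched in RefSeq windows from 250 bases before to 50 bases after a transcript start (GRCm38.p6). A window was found for 50 of the 67 factors, and 14 of these (28.0%) held the hexamer, as did 8.09% of the 27025 genes with a window and 12.5% of the 8388 tested genes with one. Among the factors called higher it was in 6 of the 10 with a window, among those called lower in 1 of 2, and among those not called in 6 of 34 (17.6%). Over all tested genes the hexamer went with no surplus of higher calls: 15.8% of genes with it and 16.5% of genes without it were higher, and 13.2% and 12.2% were lower. The stretches around the hexamer in the 6 higher factors and the 1 lower factor are printed here, 5′ to 3′ on the strand of the gene, to show how its flanks and its distance from the start vary; capitals mark the hexamer.
Eef2: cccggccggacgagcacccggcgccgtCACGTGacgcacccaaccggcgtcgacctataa
Eef2k: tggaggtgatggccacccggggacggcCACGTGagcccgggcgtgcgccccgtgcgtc
Eif3f: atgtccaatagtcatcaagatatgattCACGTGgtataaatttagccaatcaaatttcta
Eif3k: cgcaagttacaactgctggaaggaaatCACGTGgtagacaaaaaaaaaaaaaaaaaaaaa
Eif4a1: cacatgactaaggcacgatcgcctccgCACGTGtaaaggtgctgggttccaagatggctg
Eif4h: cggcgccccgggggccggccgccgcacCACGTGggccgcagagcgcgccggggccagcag
Eif3a: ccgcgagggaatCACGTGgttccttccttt

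These stretches lie at chr10:81176561-81176620 on the plus strand for Eef2, chr7:120842773-120842830 (plus) for Eef2k, chr7:108934320-108934379 (plus) for Eif3f, chr7:28981900-28981959 (minus) for Eif3k, chr11:69672580-69672639 (minus) for Eif4a1, chr5:134639473-134639532 (minus) for Eif4h and chr19:60790654-60790683 (minus) for Eif3a. Relative to the RefSeq start, the first base of the hexamer was at -31 in Eef2k, -43 in Eef2, -44 in Eif3k, -68 in Eif3f, -96 in Eif4h and -189 in Eif4a1, and downstream of the start at 23 in Eif3a. The flanks of Eef2, Eef2k and Eif4h are rich in G and C, whereas those of Eif3f and Eif3k are rich in A and T. A match describes the letters in these windows and is no measurement of binding.

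Both genes of the translocation step were higher in the OE-labelled libraries, as were 16.5% of all genes tested. Eef2 (ENSMUSG00000034994, chr10:81176631-81182498 on the plus strand), the translocase itself, had 2636, 2583 and 2631 CPM in control replicates 1 to 3 and 4842, 3840 and 3746 CPM in OE-labelled replicates 1 to 3. The controls lay within a narrow band and OE-labelled replicate 1 stood above the other two, with a wide gap between the groups. The means were 2617 ± 29.6 and 4143 ± 608 CPM (SD, n = 3 each), a log2 fold change of 0.66 with a standard error of 0.105 and an edgeR adjusted p of 0.000804.

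Eef2k (ENSMUSG00000035064, chr7:120842831-120907450, plus strand) encodes the kinase that phosphorylates eEF2 and thereby slows elongation. Its transcript was scarce, with 46, 45 and 56 raw counts in controls and 130, 128 and 132 in OE-labelled libraries. On the scaled axis this was 21.05, 20.97 and 25.63 CPM against 52.32, 50.01 and 55.43 CPM, tight in both groups and far apart between them. The log2 fold change was 1.22 with a standard error of 0.154 (2.33-fold; edgeR adjusted p = 0.000242), the largest among the 59 tested factors. Thus the transcript of the enzyme and that of its inhibitory kinase were both higher. Eef2 overlaps the small nucleolar RNA gene Snord37 and Eef2k a gene on each strand. Whether the authors' counting used strand is not given in the sources used here.

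The eEF1 genes were split. Of the 5 tested, 2 (40%) were higher and none was lower, beside 16.5% and 12.7% of all genes tested. Eef1a1 (chr9:78478449-78489151, minus strand), which encodes the main carrier of aminoacyl-tRNA, had 1537, 1641 and 1727 CPM in controls and 2162, 2136 and 2620 CPM in OE-labelled libraries. Each OE-labelled value exceeded each control value, with replicate 3 highest in both groups. The means were 1635 ± 95.2 and 2306 ± 272 CPM (SD, n = 3), and the log2 fold change was 0.50 with a standard error of 0.103 (edgeR adjusted p = 0.00375). Its 3′ end has 14 near-identical copies in the annotation and its counts were fractional, so reads may have been divided between copies and its level is uncertain.

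Eef1d, the delta subunit of the exchange factor that recharges eEF1A with GTP, had 283.3, 287.5 and 249.9 CPM in controls and 439.5, 393.8 and 349.4 CPM in OE-labelled libraries. The groups did not overlap, although the lowest OE-labelled library was closer to the controls than the highest was. The log2 fold change was 0.53 with a standard error of 0.114 (edgeR adjusted p = 0.00466); Eef1d (chr15:75894205-75909556, minus strand) overlaps Naprt. The other subunits of the exchange factor did not pass the threshold: the log2 fold change was 0.12 for Eef1b2 (adjusted p = 0.302) and 0.02 for Eef1g (adjusted p = 0.901). Eef1e1, whose product sits in the multi-tRNA synthetase complex, had an estimate of -0.26 (adjusted p = 0.54). Eef1a2, the paralogue of muscle and neurons, was without counts.

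In eIF3, the large scaffold on the small subunit, 5 of 13 tested subunit genes were higher and 1 was lower, with a median log2 fold change of 0.299. These were 38.5% and 7.69%, beside 16.5% and 12.7% of all genes tested, whose median was 0.041. Eif3f (chr7:108934417-108942951, plus strand) had 548.8, 562.9 and 537.7 CPM in controls and 1024, 836 and 861.7 CPM in OE-labelled libraries. No OE-labelled library came near the controls, and replicate 1 was highest. The means were 549.8 ± 12.6 and 907.3 ± 102 CPM (SD, n = 3), with a log2 fold change of 0.72, a standard error of 0.103 and an edgeR adjusted p of 0.000479. For Eif3l (chr15:79075179-79094405, plus strand) the values were 119, 108.1 and 103.4 CPM in controls and 171.8, 180.9 and 151.2 CPM in OE-labelled libraries. Again the groups were separate, and the log2 fold change was 0.61 with a standard error of 0.116 (adjusted p = 0.00239).

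Eif3k, whose product pairs with that of Eif3l at the edge of the complex, averaged 263.9 ± 7.77 CPM in controls and 378.4 ± 52.5 CPM in OE-labelled libraries (adjusted p = 0.00561). Eif3g, an RNA-binding subunit of the module at the mRNA entry side, averaged 137.4 ± 6.26 and 193.9 ± 21 CPM (adjusted p = 0.00665), and Eif3h averaged 358.7 ± 15.1 and 456.7 ± 38.9 CPM (adjusted p = 0.0231). The log2 fold changes of these 3 genes were 0.52, 0.50 and 0.35. Those of Eif3g and Eif3h missed the threshold once GC content was taken into account (adjusted p = 0.125 and 0.115). Eif3g also missed it without control replicate 1 (adjusted p = 0.0501), and Eif3h without any 1 of the 3 controls (adjusted p = 0.0701, 0.118 and 0.0999).

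Eif3a (chr19:60761117-60790658, minus strand), the largest subunit and a core of the complex, moved the other way. It had 1169, 1133 and 1206 CPM in controls and 882.9, 821.6 and 752.5 CPM in OE-labelled libraries, again with no overlap. The means were 1170 ± 36.5 and 819 ± 65.2 CPM (SD, n = 3), and the log2 fold change was -0.51 with a standard error of 0.0951 (edgeR adjusted p = 0.00197). With an offset for GC content the estimate was -0.32 and the adjusted p 0.0608. The other core subunits did not pass: Eif3b was at 0.30 (adjusted p = 0.0675) and Eif3c at -0.18 (adjusted p = 0.268). The remaining 5 tested subunit genes, Eif3d, Eif3e, Eif3i, Eif3j1 and Eif3m, had log2 estimates between 0.07 and 0.39, and Eif3j2 was too low to test. Summed over the complex, eIF3 transcripts came to 4398 ± 26.7 CPM in controls and 4749 ± 328 CPM in OE-labelled libraries, a ratio of 1.08.

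**Figure D2:**
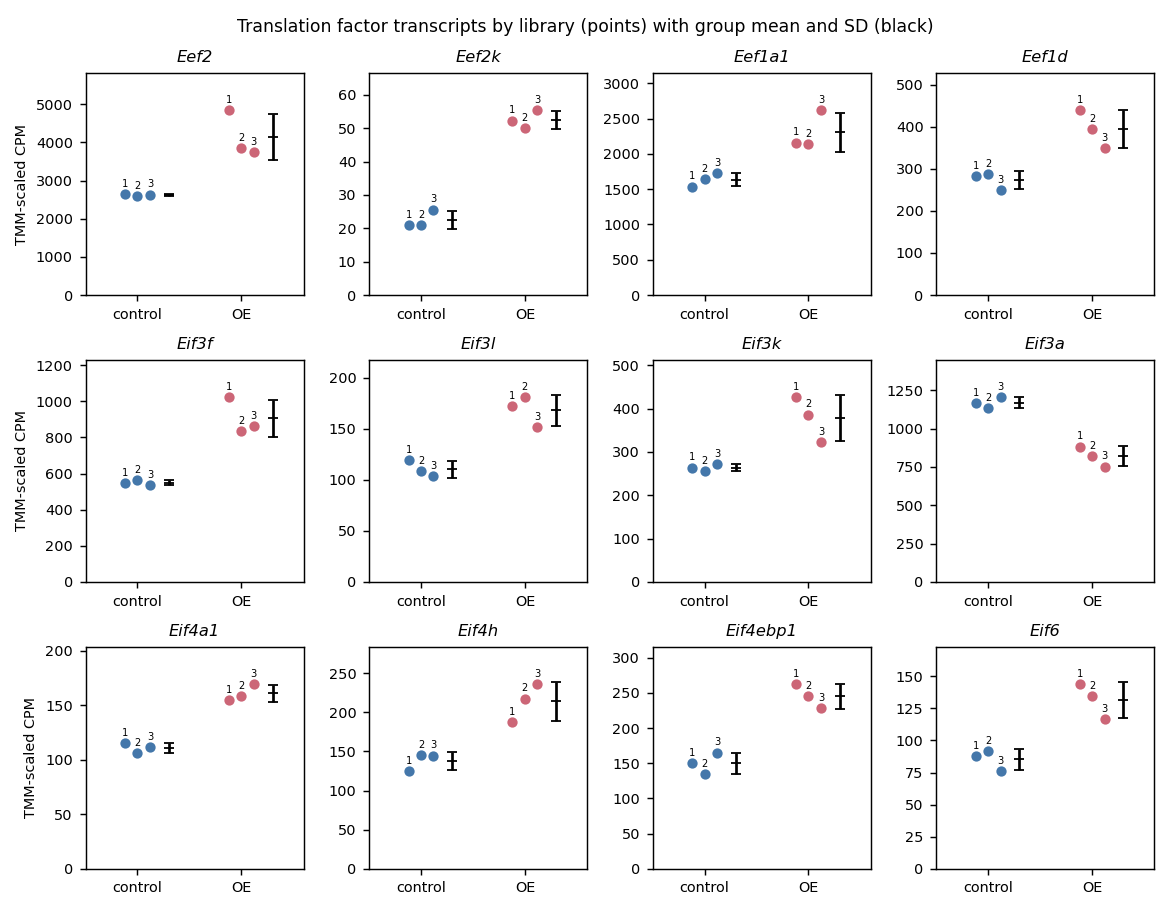
Each panel plots the TMM-scaled CPM of 1 factor in the 3 control (blue) and 3 OE-labelled (red) libraries, numbered by replicate, with the group mean and SD in black. In all 12 panels the groups are separate, and Eif3a is the one panel in which the OE-labelled libraries are lower.

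Among the 10 tested genes of cap recognition, scaffold and helicase, 2 were higher and none was lower by edgeR, with a median of 0.101; none was lower at an unadjusted p below 0.05 or in DESeq2 or limma-voom either. The share higher by edgeR was 20%, near the 16.5% of all genes tested, of which 12.7% were lower. Eif4a1 (chr11:69666936-69672423, minus strand), the main helicase, had 115.3, 106.2 and 111.7 CPM in controls and 154.9, 158.6 and 169.7 CPM in OE-labelled libraries. The spread within each group was small beside the step between them. The means were 111.1 ± 4.58 and 161.1 ± 7.66 CPM (SD, n = 3), and the log2 fold change was 0.54 with a standard error of 0.107 (edgeR adjusted p = 0.00305). Eif4h (chr5:134619721-134639490, minus strand), which stimulates the helicase, had 125, 144.9 and 144.6 CPM in controls and 187.9, 217.6 and 236.4 CPM in OE-labelled libraries. Its groups were likewise separate, with a log2 fold change of 0.63 and a standard error of 0.12 (adjusted p = 0.00237).

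Eif4b, a second stimulator of the helicase, had an estimate of -0.22 (adjusted p = 0.128). Eif4g1, the scaffold and the most counted gene of the group, had 539.2, 566.2 and 578 CPM in controls and 642.3, 546.9 and 585.4 CPM in OE-labelled libraries. These ranges overlap, and the log2 fold change was 0.08 (adjusted p = 0.593). Eif4g2, a scaffold without an eIF4E site, averaged 450.1 ± 12.1 and 512.4 ± 24.8 CPM (log2 fold change 0.19, adjusted p = 0.153), and Eif4g3 118.3 ± 14.5 and 109.7 ± 62.2 CPM (adjusted p = 0.807). The cap-binding Eif4e had 51.26, 47.07 and 46.22 CPM in controls and 58.75, 52.35 and 46.61 CPM in OE-labelled libraries, with an estimate of 0.13 (adjusted p = 0.525). Eif4e2, whose product binds the cap without recruiting eIF4G, was at -0.01 (adjusted p = 0.959). Eif4a3, a helicase of the exon junction complex rather than of initiation, averaged 105.6 ± 1.15 and 138.5 ± 27.2 CPM and missed the threshold (log2 fold change 0.39, adjusted p = 0.0545).

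Of the 4 genes whose products bind eIF4E and hold back cap-dependent initiation, Eif4ebp1 was higher. That 1 gene was 25% of the list, beside 16.5% of all genes tested. Eif4ebp1 (ENSMUSG00000031490, chr8:27260329-27276674, plus strand), the repressor that mTORC1 releases by phosphorylation, had 150.1, 135.1 and 165.2 CPM in controls and 262.8, 245 and 228 CPM in OE-labelled libraries. Every OE-labelled library was well above the highest control. The means were 150.2 ± 15 and 245.3 ± 17.4 CPM (SD, n = 3), and the log2 fold change was 0.71 with a standard error of 0.114 (edgeR adjusted p = 0.000867). Its paralogue Eif4ebp2 had 263.2, 265.2 and 246.7 CPM in controls and 220.9, 312.1 and 183.1 CPM in OE-labelled libraries, which scattered to both sides of the controls (log2 fold change -0.11, adjusted p = 0.63). Eif4ebp3 was at 0.24 (adjusted p = 0.492) and Eif4enif1, the transporter that carries eIF4E into the nucleus and into P-bodies, at -0.30 (adjusted p = 0.286).

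Among the 8 genes of start codon selection and subunit joining, Eif6 alone passed the threshold. That was 12.5% higher, near the 16.5% of all genes tested, and none lower, beside 12.7%. Eif6 (chr2:155819832-155826925, minus strand), which keeps the large subunit from joining too early and serves in its maturation, had 87.88, 91.8 and 76.43 CPM in controls and 144.1, 134.4 and 116.7 CPM in OE-labelled libraries. The groups did not overlap, and replicate 3 was lowest in each. The means were 85.37 ± 7.99 and 131.7 ± 13.9 CPM (SD, n = 3), with a log2 fold change of 0.63, a standard error of 0.126 and an edgeR adjusted p of 0.00318. Eif5b, the joining factor and the most counted of the 8, had 671.5, 629.1 and 618.3 CPM in controls and 660, 545 and 530.4 CPM in OE-labelled libraries, so that the groups overlapped (log2 fold change -0.15, adjusted p = 0.33). The scanning genes Eif1, Eif1a, Eif1ax, Eif1b and Eif5 and the related Eif1ad had estimates between -0.14 and 0.30. The summed level of the 8 genes was 1901 ± 31.4 CPM in controls and 1893 ± 42.6 CPM in OE-labelled libraries.

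No gene of the eIF2 and eIF2B complexes passed the edgeR threshold without a GC offset, nor did any in DESeq2 or limma-voom. Of all genes tested, 29.2% passed in edgeR without the offset, 19.6% in DESeq2 and 28.7% in limma-voom. At an unadjusted p below 0.05, 1 of the 8 was higher and 1 lower. With the GC offset in edgeR, 3 of the 8 passed: Eif2s3x (0.53, adjusted p = 0.0207) and Eif2s2 (0.41, adjusted p = 0.0317) were higher and Eif2b4 (-0.52, adjusted p = 0.0268) was lower. In that fit 23.1% of all genes tested passed, and 8 genes are few to set against such shares. Eif2s2, the beta subunit of eIF2, had 949.8, 946.9 and 957.9 CPM in controls and 1097, 1073 and 923.4 CPM in OE-labelled libraries. Replicate 3 lay below the controls and the other two above them, and the log2 fold change was 0.12 (adjusted p = 0.388). Eif2s1, the alpha subunit that stress kinases phosphorylate, was at -0.35 (adjusted p = 0.118) and the gamma subunit gene Eif2s3x at 0.35 (adjusted p = 0.102). The 5 genes of eIF2B, the factor that reloads eIF2 with GTP, had log2 estimates between -0.28 (Eif2b4) and 0.33 (Eif2b2). Eif2b5, the catalytic subunit, had 74.61, 77.82 and 82.83 CPM in controls and 76.46, 72.27 and 54.17 CPM in OE-labelled libraries, with overlapping groups (log2 fold change -0.21, adjusted p = 0.288).

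Eif2a, despite its symbol, encodes no subunit of eIF2 but a separate factor that can bring initiator tRNA to the ribosome. Eif2a (chr3:58525821-58557501, plus strand) had 56.3, 60.11 and 61.32 CPM in controls and 29.38, 36.72 and 47.45 CPM in OE-labelled libraries. The controls were close together, and the OE-labelled libraries were spread but all lower. The means were 59.25 ± 2.62 and 37.85 ± 9.09 CPM (SD, n = 3), and the log2 fold change was -0.65 with a standard error of 0.169 (edgeR adjusted p = 0.0127). The call was lost with a GC offset (-0.39, adjusted p = 0.0739), without control replicate 2 (adjusted p = 0.0544) and without control replicate 3 (adjusted p = 0.0591). Eif2a overlaps 6720482G16Rik on its own strand and Serp1 on the other. Eif2d, another non-canonical tRNA carrier, was at 0.23 (adjusted p = 0.52).

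Eif5a, which carries hypusine and helps the ribosome over difficult peptide bonds, had 275.5, 236.7 and 241.6 CPM in controls and 198, 295 and 240.6 CPM in OE-labelled libraries. The OE-labelled values straddled the controls (log2 fold change -0.04, adjusted p = 0.858), and Eif5a2 was too low to test.

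Of the 6 enzymes that methylate elongation factors 2 were higher, and the median log2 fold change was 0.482. Their share was 33.3%, beside 16.5% of all genes tested. All 6 estimates were positive in this fit, but that of Eef1akmt2 (0.13) was -0.49 in limma-voom, -0.03 with the replicate block and -1.08 without OE-labelled replicate 3. Eef2kmt, which methylates a lysine of eEF2, had 54.47, 52.66 and 53.54 CPM in controls and 67.21, 69.93 and 66.77 CPM in OE-labelled libraries. Both groups were tight and separate, and the log2 fold change was 0.34 with a standard error of 0.12 (edgeR adjusted p = 0.0477). Eef1akmt1, an eEF1A methyltransferase, had only 14, 24 and 24 raw counts in controls and 37, 40 and 41 in OE-labelled libraries (log2 fold change 0.74, standard error 0.252, adjusted p = 0.0434). Both calls lay at the edge of the threshold. Eef2kmt lost its call in 13 of 18 processing alternatives, among them leaving out any 1 of the 6 libraries. Eef1akmt1 lost its call in 11, among them leaving out any 1 library but OE-labelled replicate 1.

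Paralogous factors were compared as ratios of counts within a library, which no scaling between libraries can alter. Of 10 pairs, 7 had both genes tested. With 3 libraries against 3, the smallest p that the exact two-sided permutation test can give is 0.1, so no pair could pass a threshold of 0.05. Eif4ebp1 to Eif4ebp2 stood at 0.571, 0.51 and 0.67 in controls and 1.19, 0.785 and 1.25 in OE-labelled libraries. In controls Eif4ebp2 was thus the more counted gene in every library, and in OE-labelled replicates 1 and 3 Eif4ebp1 was. The mean log2 ratio differed by 0.86 (exact permutation p = 0.1, 0.175 after adjustment over 7 pairs).

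Eif4a1 to Eif4a2 stood at 1.19, 0.97 and 1.11 in controls and 5.63, 1.7 and 1.2 in OE-labelled libraries, a difference in log2 ratio of 1.05 (exact permutation p = 0.1, adjusted 0.175) that fell to 0.39 without OE-labelled replicate 1. Replicate 3 barely exceeded the highest control, so the difference rests mainly on the first OE-labelled library. Eif4e to Eif4e2 stood at 0.395, 0.39 and 0.399 in controls and 0.418, 0.436 and 0.452 in OE-labelled libraries, a difference of 0.14 in log2 ratio (exact permutation p = 0.1, adjusted 0.175). That shift is small, but neither group spread by as much. Eif1a to Eif1ax differed by -0.12 with no overlap between groups (exact permutation p = 0.1, adjusted 0.175), and by -0.07 without OE-labelled replicate 3. In the other 3 pairs, Eif1 to Eif1b, Eif4g1 to Eif4g2 and Eif4g1 to Eif4g3, the groups overlapped (exact permutation p = 0.4, 0.4 and 0.7).

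**Figure D3:**
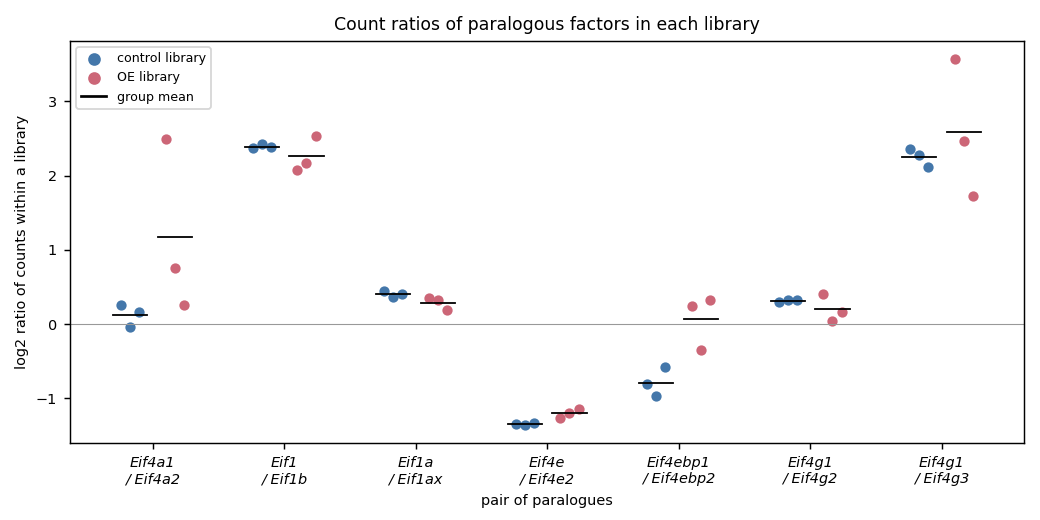
The log2 ratio of counts within each library is plotted for the 7 tested pairs of paralogues, with control libraries in blue, OE-labelled libraries in red and group means as bars. The pair Eif4ebp1 and Eif4ebp2 moves from below 0 in all 3 controls to above 0 in 2 of 3 OE-labelled libraries, and the first OE-labelled library stands apart for Eif4a1 to Eif4a2 (2.49 on the log2 axis).

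The factors scattered more among OE-labelled libraries than among controls. The median coefficient of variation over the 59 tested factors was 5.65% in controls and 11.8% in OE-labelled libraries. This spread and the replicate orders below were read over the factors only. Whether they set the factors apart from other genes was not tested. The 6 factors with the widest spread shared 1 order, lowest in OE-labelled replicate 1 and highest in OE-labelled replicate 3. Eef1akmt2 had 8.697, 7.922 and 8.238 CPM in controls and 1.61, 6.251 and 19.74 CPM in OE-labelled libraries, a 12.3-fold range. Eif4a2 (chr16:23107444-23114136, plus strand), the second cytoplasmic helicase gene, had 96.58, 109.5 and 100.2 CPM in controls and 27.37, 93.37 and 141.5 CPM in OE-labelled libraries, a 5.17-fold range. Eif4g3 had 104.8, 116.5 and 133.6 CPM in controls and 53.93, 98.45 and 176.8 CPM in OE-labelled libraries. In each of these genes the controls fell between the lowest and the highest OE-labelled library, so the group means hide a spread in both directions.

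Eif3m, Eef1e1 and Eif2d spanned 2.53-fold, 2.29-fold and 2.01-fold within the OE-labelled group. Across all 59 factors, OE-labelled replicate 1 was highest for 24, replicate 2 for 18 and replicate 3 for 17, and the lowest value came from replicate 1 in 24, replicate 2 in 10 and replicate 3 in 25. The log2 ratio of OE-labelled replicate 3 to replicate 1 went down with the GC content of the transcript across factors (Spearman's rho = -0.386 over 59 genes, which share the same libraries) and across all tested genes (rho = -0.192 over 10679). Eif4a2 overlaps 6 genes on its own strand, snoRNA genes among them, and has a near-identical copy of its 3′ end, so its level is uncertain.

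**Figure D4:**
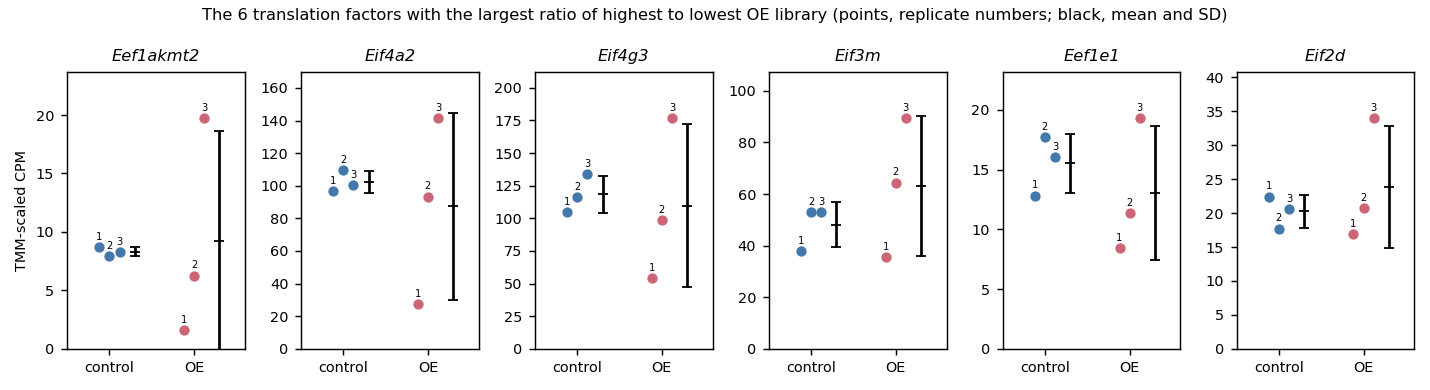
TMM-scaled CPM in each library (blue, control; red, OE-labelled; numbers, replicates) with mean and SD in black, for the 6 factors with the largest ratio of highest to lowest OE-labelled library. In all 6 panels OE-labelled replicate 1 is lowest and replicate 3 highest of that group; the lower end of the SD bar of Eef1akmt2 falls below 0 and is not drawn.

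GC content moved with the comparison itself. Across the 59 factors the log2 fold change rose with transcript GC content (rho = 0.343), as it did across all tested genes (rho = 0.369 over 10679 genes); these are descriptions over genes measured in the same 6 libraries. Of the 17 factors with a GC content below 45%, none was higher and 2 (11.8%), Eif3a and Eif2a, were lower, with a median of -0.022; of the 2743 tested genes in that range 22.2% were lower and 5.36% higher, with a median of -0.212. Of the 12 factors from 45 to 50%, 6 were higher, with a median of 0.358; of all 2763 genes in that range 11.8% were higher, with a median of -0.038. Of the 30 factors at 50% or more, 9 (30%) were higher, with a median of 0.296; of all 5173 genes in that range 25% were higher, with a median of 0.228, so the share of factors there is close to the background.

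With an offset that removes the GC trend from each library, 16 factors were higher and 1 was lower, and 11 of the 17 calls were shared with the fit without it. In the offset fit 27.1% of the tested factors were higher, beside 13% of all genes tested. Of all genes tested, 23.1% were called there in either direction. The offset uses the GC content of the whole longest transcript, whereas the libraries read the 3′ end. It also takes out any group difference that follows GC content. Eef2k, Eif3f, Eif4ebp1, Eif3l, Eef1a1, Eef1d and Eif4a1 kept log2 fold changes of 0.58 to 1.16. The estimate for Eef2 fell from 0.66 to 0.42 (adjusted p = 0.0157), that for Eif6 from 0.63 to 0.37 (adjusted p = 0.0492), that for Eif4h from 0.63 to 0.41 (adjusted p = 0.0354) and that for Eif3k from 0.52 to 0.38 (adjusted p = 0.0453). Lost were Eif3a, Eif2a, Eif3g, Eif3h, Eef1akmt1 and Eef2kmt. Gained as higher were Eif4g2, Eif3e, Eif3m, Eif2s3x and Eif2s2, and gained as lower was Eif2b4.

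**Figure D5:**
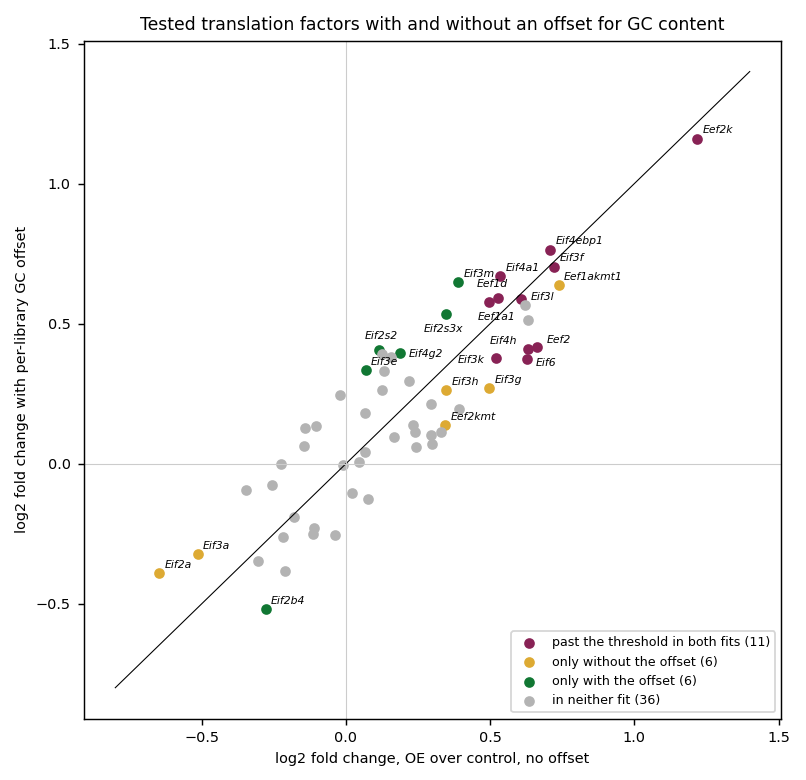
Each point is 1 of the 59 tested factors, with the log2 fold change of OE-labelled over control without a GC offset on the horizontal axis and with a per-library offset on the vertical axis; the line marks equal values. The 11 factors past the threshold in both fits lie in the upper right, and both factors that were lower without the offset, Eif3a and Eif2a, lie above the line.

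Across all 18 alternatives of scaling, test, filter, depth, rounding, block, GC content and left-out library, 11 of the 17 called factors kept their direction and their call. They were Eef2, Eef2k, Eef1a1, Eef1d, Eif3f, Eif3l, Eif3k, Eif4a1, Eif4h, Eif4ebp1 and Eif6. None of the 17 reversed, which was likely from the start because the refits reuse the libraries that gave the calls. Of the 67 factors, 36 overlap an annotated gene and 18 have a near-identical copy at the 3′ end. Of the 22 with neither, 19 were tested and 7 of these were higher: Eif3f, Eif3l, Eif3k, Eif3g, Eif4h, Eif4ebp1 and Eef1akmt1. That share was 36.8%, beside 16.5% of all genes tested. The median log2 fold change of the 19 was 0.068, beside 0.041 over all genes tested.

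The regulators and partners of these factors were read from 6 lists. Of 78 tested genes in them, 12 were higher and 12 lower, 15.4% in each direction, beside 16.5% and 12.7% of all genes, with a median of -0.011. The number past the threshold was 24 in all 6 libraries, 12 without control replicate 2 and 15 without control replicate 3. Of all genes tested, 29.2, 16.8 and 15.9% passed in the same fits, so calls became fewer over all genes as well.

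Among 19 poly(A)-binding and 4E regulators, 2 were higher (Mknk2 and Dap) and 3 lower (Pabpc1, Gigyf2 and Paip2b). That was 10.5% and 15.8%, beside 16.5% and 12.7% of all genes tested. The calls of Mknk2 and Dap held with any 1 library left out but not with the GC offset, alone or with the replicate block, where their estimates were as low as 0.35 and 0.29 (adjusted p up to 0.0635 and 0.104). Paip2b lost its call in 11 of 18 alternatives, among them limma-voom, DESeq2, the GC offset and each left-out library but OE-labelled replicate 1. Pabpc1, which binds the poly(A) tail and closes the mRNA loop through eIF4G, had 4790, 4979 and 5189 CPM in controls and 1864, 2717 and 2604 CPM in OE-labelled libraries. Every OE-labelled library was far below the lowest control, and the log2 fold change was -1.06 with a standard error of 0.126 (edgeR adjusted p = 0.000177). Its mRNA belongs to the 5′ terminal oligopyrimidine class, as do those of Eef2 and Eef1a1, which were higher. Gigyf2, which encodes a partner of eIF4E2 in repression, was also lower, at 163 ± 10.8 CPM in controls and 98.6 ± 9.95 CPM in OE-labelled libraries (log2 fold change -0.72, adjusted p = 0.000882).

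Of 15 tested genes of the eIF2α kinase and stress response list, 3 were higher and 3 lower, with a median of -0.32. Each count was 20% of the list, beside 16.5% higher and 12.7% lower among all genes tested. Chac1, a glutathione-degrading enzyme of the ATF4 program, had 48.98, 29.82 and 28.83 CPM in controls and 99, 87.9 and 89.87 CPM in OE-labelled libraries (log2 fold change 1.36, standard error 0.181, adjusted p = 0.000325). Nupr1, a stress-induced chromatin protein, was at 322.9 ± 2.2 and 498.8 ± 35 CPM (log2 fold change 0.63, adjusted p = 0.000727). The third higher gene was Atf5, and the lower ones were the kinase gene Eif2ak3, Gcn1 and Impact, which binds Gcn1. These 4 calls were less firm: Atf5 kept its call with a single library left out only in the case of OE-labelled replicate 2. Gcn1 and Impact lost theirs without control replicate 2 or control replicate 3, Gcn1 also without OE-labelled replicate 2, and Eif2ak3 without control replicate 1 or control replicate 2. Impact also lost its call in DESeq2 and with the GC offset, and Atf5 in 13 of 18 alternatives, DESeq2, limma-voom and the GC offset among them. Atf4 itself, whose protein drives the program, averaged 679.5 ± 32.3 and 637.4 ± 53.8 CPM and did not pass (adjusted p = 0.517).

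Of 15 tested genes of the mTORC1 and S6 kinase list, 5 were higher and 2 lower. As shares these were 33.3% and 13.3%, beside 16.5% and 12.7% of all genes tested. Deptor, an inhibitor of mTOR, was at 201.1 ± 8.75 CPM in controls and 314.2 ± 21.3 CPM in OE-labelled libraries (log2 fold change 0.64, adjusted p = 0.000853). Lamtor1, the lysosomal anchor of the Ragulator complex, was at 113.3 ± 4.37 and 190.8 ± 38.1 CPM (log2 fold change 0.75, adjusted p = 0.00229). Rps6ka1, Tsc2 and Rraga were higher as well, and Tsc1 and Rps6kb1 were lower, so the partners of the TSC complex stood on opposite sides. Rps6ka1 and Rraga kept their calls in all 18 alternatives. Tsc1 lost its call without control replicate 2, Tsc2 without control replicate 1, control replicate 2 or OE-labelled replicate 1, and Rps6kb1 without any 1 control or OE-labelled replicate 2. Tsc2 also missed the threshold in DESeq2 and with the GC offset, and Rps6kb1 in DESeq2, with library totals, with the replicate block and with the GC offset, where its estimate was as small as -0.11.

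Among the 9 tested genes of termination and recycling, 2 were lower and none was higher by edgeR; 2 were higher at an unadjusted p below 0.05, and none in DESeq2 or limma-voom. The share lower by edgeR was 22.2%, beside 12.7% of all genes tested, of which 16.5% were higher. Trmt112, the partner of several methyltransferases including that of the release factor, was at 91.82 ± 6.6 and 60.83 ± 8.56 CPM (log2 fold change -0.59, adjusted p = 0.00622). Gspt1, the GTPase of termination, was at 113.8 ± 20.7 and 82.75 ± 10.4 CPM (log2 fold change -0.46, adjusted p = 0.0351) and kept its call in 12 of 18 alternatives. It missed the threshold with library totals, with the GC offset (estimate -0.29) and without control replicate 2, control replicate 3 or OE-labelled replicate 2.

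None of the 8 tested genes that make diphthamide on eEF2 or hypusine on eIF5A passed the edgeR threshold, and none did at an unadjusted p below 0.05 or in DESeq2 or limma-voom. Of all genes tested, 29.2% passed in edgeR, 19.6% in DESeq2 and 28.7% in limma-voom, and 8 genes are few to set against such shares. Of the 12 mitochondrial translation factors, 2 were higher (Tufm and Mrpl58) and 2 lower. Each count was 16.7% of the list, close to the 16.5% higher and 12.7% lower among all genes tested. Tufm missed the threshold without control replicate 2, control replicate 3, OE-labelled replicate 1 or OE-labelled replicate 2, and Mrpl58 without any 1 library but OE-labelled replicate 3. Both also missed it in DESeq2 and with the GC offset, and over all alternatives Tufm lost its call in 8 of 18 and Mrpl58 in 12. Mtif2, the mitochondrial initiation factor, was at 35.61 ± 2.73 and 23.67 ± 1.89 CPM (log2 fold change -0.59, adjusted p = 0.0167), and lost its call without control replicate 1 or control replicate 2 and with the GC offset (estimate -0.40). Mtrf1l, a mitochondrial release factor, was at 15.18 ± 2.17 and 8.577 ± 1.74 CPM (log2 fold change -0.82, adjusted p = 0.0263), and lost its call in DESeq2, with the GC offset and without control replicate 1, control replicate 3 or OE-labelled replicate 3.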

How the data were processed

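Total RNA was extracted with DNase digestion and made into QuantSeq 3′ forward libraries, per the labels' protocols; this kit reads the polyadenylated end, so transcript length does not enter a count. The submitters' processing notes name STAR, HTSeq and the mouse build mm10/GRCm38. Estimated counts for each gene, not normalized, were deposited by the authors. Handling of strand and multi-mapping reads is not given in the sources used here. Of the values, 2843 in 1034 genes (5 of them factors) were fractional and were rounded; the planned test assumed whole numbers. Columns were matched to samples by library name.

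All 6 libraries were fitted together without covariates in edgeR 4.0.16 (R 4.3.3): filterByExpr, TMM factors, quasi-likelihood F test, and Benjamini-Hochberg adjustment over 10687 genes with a threshold of 0.05. Standard errors are the estimate over the square root of F. On simulated data with 200 genes changed by 1 log2 unit among 10687, the fit recovered 71.5% of them, and 5.92% of its calls were false. The simulated counts carried no GC trend between groups. Of the 17 called factors, 16 changed by less than 1 log2 unit, so these rates need not hold for them. Alternatives used DESeq2 1.42.0 and limma 3.58.1 (voom), other scalings and filters, a replicate block, left-out libraries and a loess offset (span 0.5) for the GC content of the longest transcript. Paralogue ratios used a pseudocount of 0.5. Positions and overlaps are from GENCODE M21 (GRCm38), which held 51903 of the identifiers; a 3′ copy is another gene matching the last 300 transcript bases at 95% identity or more over at least 75 bases. The factors, lists and roles were chosen with earlier results of these data known. Values per library are given for the most counted factor of each role, for up to 3 called factors of smallest p in each role and for tested paralogue pairs; of each partner list, up to 2 called genes of smallest p are given with values; other partner genes are named because the counts are small. The 6 factors of widest spread were chosen after their values were seen. A floor of 3 counts covers counting error only.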

Additional observations from a re-analysis of the deposited data

How the results depend on the processing

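Low counts kept 3 detected factors (Eif3j2, Eif4e3 and Eif5a2) from being tested. Group cannot be told apart from library series. The number of factors past the threshold was 17, and 14 to 19 under other scalings, tests, filters, depth and GC settings. Of all genes tested, 29.2% passed in the main fit and 17.3 to 29.8% under those settings. Leaving out 1 library gave 13 to 19 factors in all, 11 to 16 higher and 1 to 4 lower. The share of all genes tested that passed ranged from 15.9 to 32.5% over the same refits. The counts of 13 fell where that share was 15.9 to 17.3%. The number lower was 1 with the GC offset, 1 with the replicate block and GC offset together, and 1 at an adjusted p below 0.01, and the cause was not tested. With the replicate block alone 16 factors passed, as did 29.1% of all genes tested. The deviations of same-numbered libraries correlated by 0.097, 0.018 and 0.069, and replicates 1 and 3, but not 2, matched their own number best. With 3 libraries per group these values cannot show whether same-numbered libraries were paired. The partner lists had 24 genes past the threshold and 12 to 30 with 1 library left out, in refits where 15.9 to 32.5% of all genes tested passed.

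Called factors kept direction and call in 266 of 306 refits, missed the threshold in 40 and reversed in 0. The 42 factors not called changed sign in 47 of 756 refits, and the cause was not tested. With the GC offset and with block and offset together, log2 estimates changed sign for Eif5 (0.13 and 0.13), Eif5b (0.06 and 0.05), Eif4g1 (-0.12 and -0.13), Eif1a (0.13 and 0.13), Eif1ax (0.25 and 0.25) and Eef1g (-0.10 and -0.11). Eef1g was also -0.02 with DESeq2 size factors, -0.04 without mitochondrial genes and the ribosomal RNA gene CT010467.1, -0.02 in DESeq2 and -0.01 with no filter. Eif1ad was -0.02 without those genes and -0.0002 in DESeq2. With library totals Eif4e2 was 0.04, Eif1ax 0.03 and Eif5a 0.01, and at equal depth Eif1ax was 0.01. Eef1akmt2 was -0.49 in limma-voom and -0.03 with the replicate block.

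With 1 library left out, estimates that crossed 0 ranged from -1.08 to 0.57 for Eef1akmt2, -0.09 to 0.04 for Eef1g, -0.09 to 0.07 for Eif1ad, -0.11 to 0.02 for Eif1ax, -0.02 to 0.15 for Eif2b1, -0.09 to 0.13 for Eif2b3, -0.13 to 0.37 for Eif2d, -0.12 to 0.14 for Eif3e, -0.01 to 0.27 for Eif3i, -0.79 to 0.14 for Eif4a2, -0.02 to 0.18 for Eif4e, -0.19 to 0.07 for Eif4e2, -0.38 to 0.02 for Eif4ebp2, -0.04 to 0.10 for Eif4g1, -0.66 to 0.16 for Eif4g3 and -0.23 to 0.04 for Eif5a.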
